A study of Triticum aestivum with 4 samples.

Results

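*FIS1A* and *DRP5B* encode 2 components of the machinery that divides organelles, and they are 2 of the 8 target genes of a quantitative real-time PCR study of wheat leaves. They were taken by name from the deposited table of threshold cycles (Ct), where they hold 72 of the 288 wells, 9 wells for each gene in each of 4 groups. In plants, FIS1 proteins sit in the outer membrane of mitochondria and in the peroxisomal membrane and take part in the fission of both organelles. DRP5B, known in *Arabidopsis* as ARC5, is a dynamin-related GTPase that constricts dividing chloroplasts from the cytosolic side and also acts on peroxisomes. Proteins of the PEX11 family, 2 of which are among the other targets, elongate the peroxisomal membrane before fission. In the RefSeq annotation of wheat, the transcripts listed for the 2 assays belong to the protein-coding genes LOC123130823 (*FIS1A*) and LOC123102852 (*DRP5B*). Bread wheat carries homoeologous copies of both genes, and a Ct can combine them.

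The groups were Line4 stress, Line4 control, Misr2 stress and Misr2 control. Line4 is a spring wheat line that the study calls heat-susceptible, and Misr2 is a cultivar that it calls heat-tolerant. Plants of both genotypes grew in field plots, and the leaves of a plant were bulked for RNA. The stressed plants were sown late, so that they flowered in hotter weather, and the controls at the usual time. Late sowing can also change growth conditions other than temperature, and these cannot be told apart from heat in this design. Each group was deposited as 1 sample, and its genotype and treatment were read from the title, since a separate treatment label disagrees with the title for the Misr2 stress and Line4 control samples.

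Ct is the PCR cycle at which the fluorescence of a well crosses a threshold, so a later Ct means less template. One cycle was read as a factor of 2, and changes are given as log2 changes, which are Ct changes with the sign turned. Sets of 3 successive wells were taken as the 3 biological replicates of a group. No reference gene is among the deposited Ct values, so a raw Ct also carries any unequal input of cDNA, although equal amounts were stated to have been used. Changes relative to the mean and to the median of the 6 other targets in the same replicate were therefore computed beside it, although these targets are not reference genes. The 4 groups carry the same well names, and whether they ran on separate plates is not given in the sources used here, so plate and group cannot be told apart. The median SD of raw Ct over all genes and groups was 0.0800 cycles between replicates and 0.156 cycles between wells of a replicate. For *DRP5B*, the SD between replicates was below the value that well noise alone would give to means of 3 wells in 4 of 4 groups, and for *FIS1A* in 2 of 4. The labels do not state which wells belong to which plant, so the p-values measure only the spread between these sets of wells, which may be technical.

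*FIS1A* appeared latest in the stressed plants of both genotypes. In Line4 stress, its replicates had Ct values of 34.55, 34.66 and 34.73, against 33.16, 33.18 and 33.24 in Line4 control. In Misr2 stress, they had 34.78, 34.94 and 34.77, against 29.79, 29.83 and 29.95 in Misr2 control. Every stressed replicate was later than every control replicate of its genotype, and Misr2 control stood apart from the other groups by more than 3 cycles. The highest single *FIS1A* well reached 34.97 cycles, so 0 wells of this gene were above 35 cycles. All stressed wells lay close below that mark, from 34.35 to 34.94 in Line4 and from 34.66 to 34.97 in Misr2. The highest Ct of any target was 35.74, so both stressed groups sit near the late end of the measured range.

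**Figure D1:**
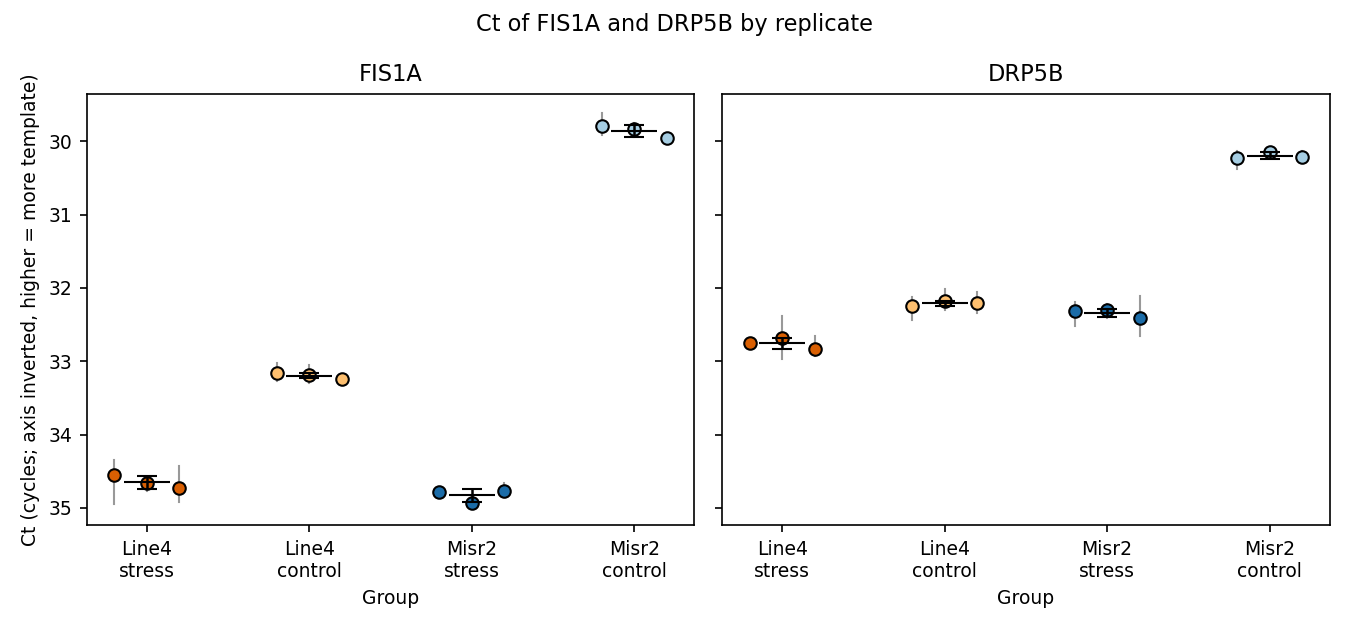
Ct in cycles (vertical axis, inverted) of *FIS1A* and *DRP5B* in the 4 groups (horizontal axis). Points are replicates, each the mean of 3 wells, grey lines span the lowest and highest well of a replicate, and black bars give the mean ± SD of 3 replicates. For both genes Misr2 control lies apart at about 30 cycles, and the stressed groups lie below the control of their genotype.

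The *FIS1A* level fell under stress in both genotypes. In Line4 the mean Ct was 34.65 ± 0.0892 under stress and 33.19 ± 0.0400 in control (SD, n = 3 each), which gave −1.45 on the log2 scale (SE 0.0719, limma adjusted p = 9.98e-13), or 0.365 times the control. In Misr2 it was 34.83 ± 0.0946 under stress and 29.86 ± 0.0820 in control (SD, n = 3 each), which gave −4.97 on the log2 scale (SE 0.0719, limma adjusted p = 4.99e-21), or 0.0318 times the control. The two-sided exact permutation test gave p = 0.1 in each genotype, the smallest p that 3 replicates against 3 allow.

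Most targets changed under stress, so a call alone does not set *FIS1A* apart. In Line4, 75% of the 8 targets passed the threshold of an adjusted p under 0.05, 37.5% of the 8 as lower, and the replicates did not overlap for 75%. Of the 8, 3 were higher and 3 lower on raw Ct, and 1 was higher and 6 lower relative to the median of the 6 other targets. In Misr2, 100% passed, 100% as lower, with no overlap of replicates for 100%. The size of the *FIS1A* change was the largest of the 8 targets in Misr2, where the 6 targets other than *FIS1A* and *DRP5B* ranged from −3.16 (*HSP90*) to −0.46 (*HSP70*) on the log2 scale. In Line4 it was the third largest, after *HSP90*, with −3.42, and *CAT*, with 1.94.

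Scaling to the other targets made the Misr2 change smaller and left it negative. Between stress and control, the mean of the 6 other targets shifted by −0.06 in Line4 and by −1.78 in Misr2 on the log2 scale. These targets changed under stress themselves, so their mean or median is not a reference and does not isolate cDNA input. In Line4 the mean shift averages changes from −3.42 (*HSP90*) to 1.94 (*CAT*). Relative to that mean, *FIS1A* changed by −1.40 in Line4 (95% interval −1.56 to −1.23) and by −3.20 in Misr2 (−3.36 to −3.03). Relative to the median of the 6 other targets, it changed by −2.44 in Line4 and −3.24 in Misr2. On this mean scale, 75% of the 8 targets passed the threshold in Line4 and 87.5% in Misr2. The study, which scaled to its reference gene *Actin-7*, likewise reports that heat lowered *FIS1A* in both genotypes.

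Between genotypes, *FIS1A* on raw Ct differed strongly in control plants and little under stress. In control plants, its mean Ct was 3.34 cycles later in Line4 than in Misr2, a log2 difference of −3.34 (SE 0.0719, limma adjusted p = 1.85e-18). Of the 8 targets, 87.5% passed the threshold in this comparison and 75% were lower in Line4, with no overlap of replicates for 87.5%. The difference was −1.67 relative to the mean of the 6 other targets and −0.58 relative to their median. Its size thus depended on the scaling, while its direction was the same under these 3 scalings. Against single targets, *FIS1A* was lower in Line4 relative to 6 of 7 and higher relative to *CAT*, by 1.64.

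Under stress, the log2 difference in *FIS1A* between Line4 and Misr2 was 0.18 (SE 0.0719, 95% interval 0.03 to 0.33, limma adjusted p = 0.0249). The replicates did not overlap, but the highest Line4 replicate at 34.73 and the lowest Misr2 replicate at 34.77 were nearly level, and the wells of the groups overlapped. The call was lost relative to the mean of the 6 other targets (0.13, limma adjusted p = 0.139). It was also lost without Line4 stress replicate 1 (0.13, limma adjusted p = 0.109) and without Misr2 stress replicate 2 (0.13, limma adjusted p = 0.124). In this comparison 87.5% of the 8 targets passed the threshold, 50% as higher and 37.5% as lower in Line4, with no overlap of replicates for 87.5%.

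The heat response of *FIS1A* was weaker in Line4 than in Misr2. The response in Line4 minus that in Misr2 was 3.52 on the log2 scale (SE 0.102, limma adjusted p = 4.69e-16), and 87.5% of the 8 targets passed the threshold for this difference, all of them as higher in Line4. It stayed positive at 1.80 relative to the mean of the 6 other targets, where 62.5% of the 8 targets passed, and at 0.80 relative to their median (limma adjusted p = 5.32e-05).

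On raw Ct, *DRP5B* showed smaller changes between stress and control than *FIS1A* in both genotypes. Its replicates had Ct values of 32.75, 32.69 and 32.83 in Line4 stress, against 32.25, 32.18 and 32.20 in Line4 control. They had 32.32, 32.31 and 32.41 in Misr2 stress, against 30.23, 30.15 and 30.21 in Misr2 control. As with *FIS1A*, Misr2 control was the earliest group. The other 3 groups lay within 1 cycle of each other.

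Part of the *DRP5B* wells carry decimals that also occur for *CAT*, the catalase gene. The table gives Ct to 6 decimals, and the last 4 of them were the same in a *DRP5B* well and a *CAT* well of the same group 11 times, and 15 times when wells of any group were compared. In 5 of these pairs all 6 decimals were equal, so the values differed by a whole number of cycles. One example is the first well of replicate 1 in Line4 stress, with 32.739288 for *DRP5B* and 29.739288 for a *CAT* well. Such matches with other genes occurred for 0 of the 36 *FIS1A* wells within a group, and no other pair of different genes had more than 1 match. Wells of the same gene also matched. A *DRP5B* well of Misr2 control, 30.219341, and a *DRP5B* well of Misr2 stress, 32.219341, had all 6 decimals equal. The last 4 decimals were also equal for 1 pair of *DRP5B* wells within Misr2 stress and 1 pair of *FIS1A* wells within Line4 stress. Across groups, a *FIS1A* well of Line4 control matched a *PEX11.4* well of Misr2 control. The origin of these matches was not tested. Values without the *DRP5B* wells matched to *CAT* are given beside the *DRP5B* comparisons below.

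The *DRP5B* level was lower under stress in both genotypes on raw Ct. In Line4 the mean Ct was 32.76 ± 0.0714 under stress and 32.21 ± 0.0360 in control (SD, n = 3 each), which gave −0.55 on the log2 scale (SE 0.0638, limma adjusted p = 2.63e-07), or 0.684 times the control. In Misr2 it was 32.34 ± 0.0554 under stress and 30.20 ± 0.0454 in control (SD, n = 3 each), which gave −2.15 on the log2 scale (SE 0.0638, limma adjusted p = 3.79e-16), or 0.226 times the control. Stressed and control replicates did not overlap in either genotype (two-sided exact permutation test, p = 0.1 each, the smallest possible). Over the 8 targets, replicates did not overlap for 75% in Line4 and 100% in Misr2, and 37.5% and 100% passed the threshold as lower. Without the wells whose decimals were shared with another gene in the same group, all of Misr2 stress replicate 1 was missing. The changes were then −0.66 in Line4 and −2.18 in Misr2. Without those shared with *CAT* in any group, they were −0.65 and −2.23, and then 1 replicate of Misr2 stress remained, which was taken to vary like the other groups.

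In Misr2, the log2 change of *DRP5B*, −2.15, lay near the median of −2.05 over all 8 targets. Relative to the mean of the 6 others it was −0.37 (95% interval −0.54 to −0.20, limma adjusted p = 7.18e-05). In Line4, the change relative to that mean was −0.49 (−0.66 to −0.32, limma adjusted p = 3.12e-07). Relative to the median of the 6 others it was −0.41 in Misr2 and −1.54 in Line4. The change of *DRP5B* under stress was therefore negative in both genotypes under each of these 3 scalings. Scaling to *Actin-7*, the study's reference gene, was not used here and can give other sizes and directions. With that reference, the study reports that heat lowered *DRP5B* in Misr2 and raised it in Line4. The direction in Line4 is thus opposite to that under the 3 scalings above.

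**Figure D2:**
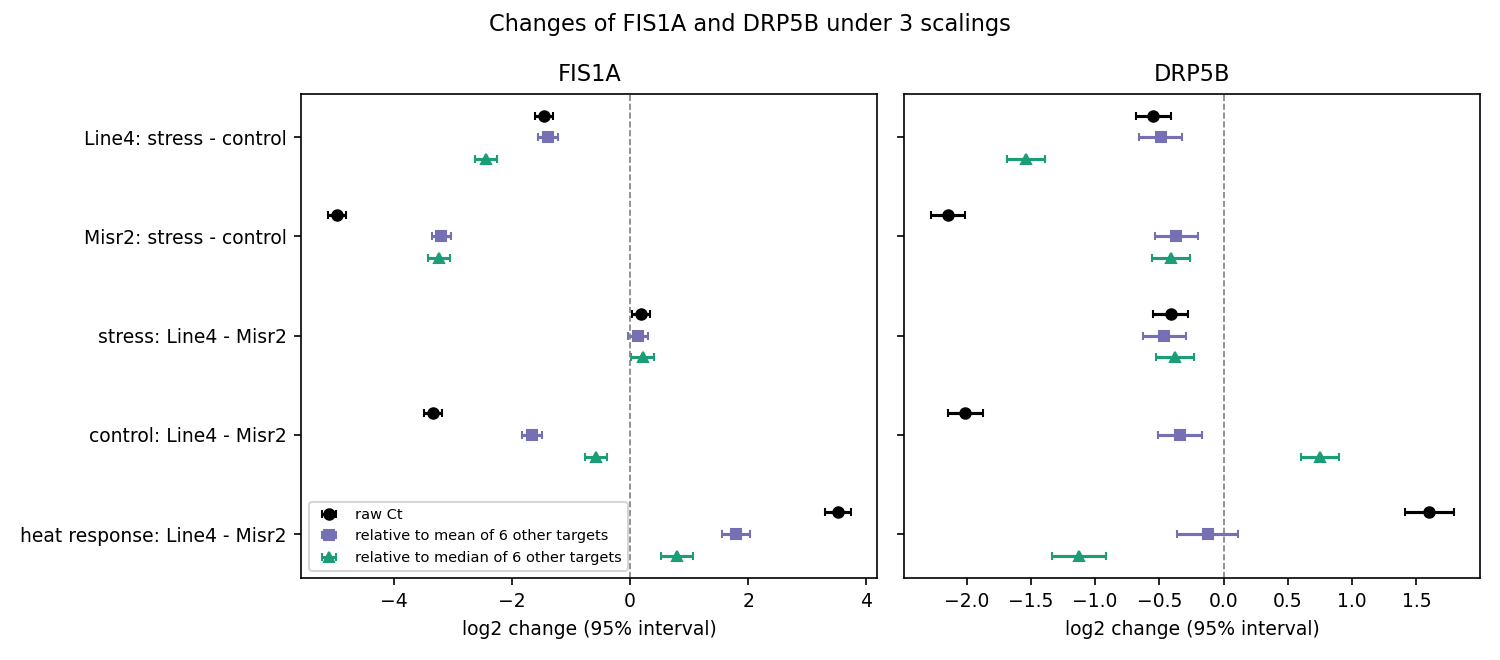
Log2 changes with 95% intervals (horizontal axis) of *FIS1A* and *DRP5B* for 5 comparisons (vertical axis), on raw Ct (circles), relative to the mean (squares) and relative to the median (triangles) of the 6 other targets. All 3 markers lie on the same side of 0 for *FIS1A*, whereas for *DRP5B* they fall on both sides for the genotype difference in control and for the difference between heat responses.

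The genotype difference in *DRP5B* was smaller under stress than in control on raw Ct. In each condition, 87.5% of the 8 targets passed the threshold for this difference, with no overlap of replicates for 87.5%. Those lower in Line4 were 37.5% of the 8 under stress and 75% in control. Under stress, the log2 difference between Line4 and Misr2 was −0.41 (SE 0.0638, limma adjusted p = 1.07e-05), and it lay between −0.47 and −0.37 under the alternatives run. In control plants it was −2.01 (SE 0.0638, limma adjusted p = 7.40e-16), and −1.99 without the wells with shared decimals. It was −0.34 relative to the mean of the 6 other targets, and it turned to 0.75 relative to their median (limma adjusted p = 2.96e-07), so the direction in control plants was not settled by these data.

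The same holds for the genotype difference in the heat response of *DRP5B*. On raw Ct the response in Line4 minus that in Misr2 was 1.60 on the log2 scale (SE 0.0903, limma adjusted p = 4.91e-12). For this difference 87.5% of the 8 targets passed the threshold, all of them as higher in Line4. The difference was −0.12 relative to the mean of the 6 other targets (limma adjusted p = 0.352) and −1.13 relative to their median (limma adjusted p = 2.02e-07). On raw Ct it was 1.52 without the wells whose decimals were shared in the same group, and 1.58 without those shared with *CAT* in any group.

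From the earliest Ct to the latest, *FIS1A* ran from Misr2 control through Line4 control and Line4 stress to Misr2 stress. *DRP5B* ran from Misr2 control through Line4 control and Misr2 stress to Line4 stress. The orders differ by the place of Line4 stress and Misr2 stress, which for *FIS1A* were 0.182 cycles apart with overlapping wells. The neighbours Line4 control and Misr2 stress differed by 0.136 cycles for *DRP5B*. Their replicates did not overlap, but their wells did, with Line4 control wells from 32.02 to 32.44 and Misr2 stress wells from 32.11 to 32.65.

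The Ct difference between *FIS1A* and *DRP5B* within a replicate needs no reference gene. Unequal cDNA input cancels in a replicate if wells at the same position held the same cDNA, which the labels do not state. Ct of *FIS1A* minus Ct of *DRP5B* was 1.805, 1.975 and 1.897 cycles in Line4 stress and 0.913, 1.009 and 1.037 cycles in Line4 control. It was 2.465, 2.633 and 2.359 cycles in Misr2 stress and −0.439, −0.321 and −0.266 cycles in Misr2 control. Misr2 control was the only group in which *FIS1A* came up before *DRP5B*, and the 4 groups did not overlap. PCR efficiency was not measured here, so the sign of the difference within a group does not say which transcript was more abundant.

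**Figure D3:**
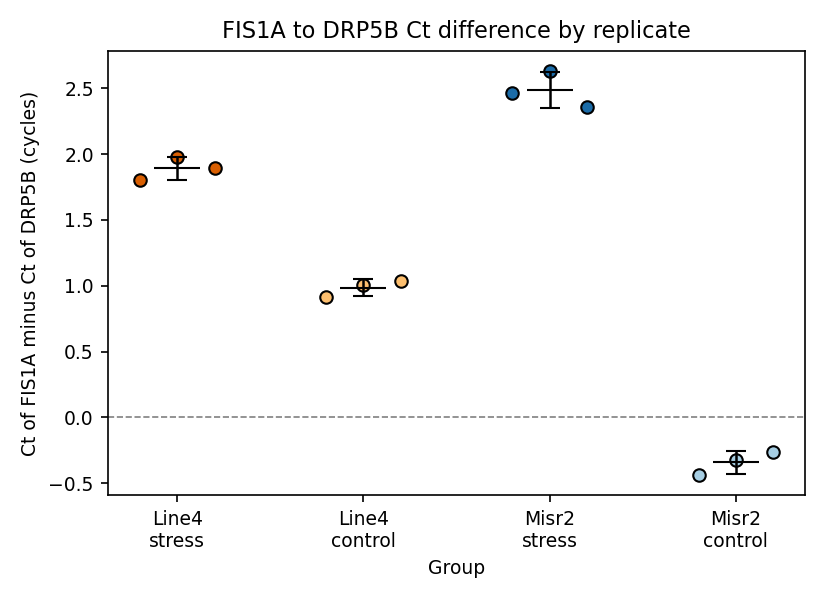
Ct of *FIS1A* minus Ct of *DRP5B* in cycles (vertical axis) in the 4 groups (horizontal axis). Points are replicates and black bars give the mean ± SD of 3 replicates. The means are 1.89 in Line4 stress, 0.986 in Line4 control, 2.49 in Misr2 stress and −0.342 in Misr2 control.

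Stress shifted the balance away from *FIS1A* in both genotypes. In Line4 the Ct difference was 1.89 ± 0.0853 under stress and 0.986 ± 0.0648 in control (SD, n = 3 each), so the log2 ratio of *FIS1A* to *DRP5B* changed by −0.91 (SE 0.111, 95% interval −1.13 to −0.68, limma adjusted p = 5.67e-09 over 28 gene pairs). In Misr2 the Ct difference was 2.49 ± 0.138 under stress and −0.342 ± 0.0888 in control (SD, n = 3 each), and the log2 ratio changed by −2.83 (SE 0.111, 95% interval −3.05 to −2.60, limma adjusted p = 5.66e-21). *FIS1A* therefore fell to 0.534 times its control ratio to *DRP5B* in Line4 and to 0.141 times in Misr2. Among the 28 pairs of the 8 targets, 96.4% passed the threshold in Line4 and 82.1% in Misr2. The replicates did not overlap for 92.9% of pairs in Line4 and 82.1% in Misr2. In size, this pair ranked as number 20 of 28 in Line4 and number 6 in Misr2.

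The ratio also differed between genotypes, in opposite directions in stressed and in control plants. Under stress, the log2 ratio of *FIS1A* to *DRP5B* was 0.59 higher in Line4 than in Misr2 (SE 0.111, limma adjusted p = 1.05e-05, with 92.9% of pairs past the threshold and 92.9% without overlap). In control plants the log2 difference between Line4 and Misr2 was −1.33 (SE 0.111, limma adjusted p = 8.99e-13, with 89.3% of pairs past the threshold and 92.9% without overlap). The shift under stress was 1.92 log2 units smaller in Line4 than in Misr2 (SE 0.157, limma adjusted p = 1.22e-12, with 89.3% of pairs past the threshold). With an efficiency of 1.9 per cycle for *FIS1A* or for *DRP5B* in place of 2, this difference was 1.66 or 2.04, and no direction of the ratio changed. Without the *DRP5B* wells with decimals shared in the same group, the ratio changed by −0.79 in Line4 and −2.82 in Misr2, and the difference between these changes was 2.03. Line4 minus Misr2 was then 0.68 under stress and −1.35 in control. Without the wells shared with *CAT* in any group, the changes were −0.81 in Line4 and −2.69 in Misr2, with a difference of 1.88, and Line4 minus Misr2 was 0.52 under stress and −1.35 in control.

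Set against each other target in turn, *FIS1A* was lower relative to nearly all of them under stress. In Misr2, its log2 ratio fell relative to 7 of 7 targets, by values from −4.51 against *HSP70* to −1.81 against *HSP90*. In Line4 it fell relative to 6 of 7 and rose relative to *HSP90*, by 1.96 (limma adjusted p = 5.84e-16). These directions follow from the single-gene changes, since no target fell more than *FIS1A* in Misr2, and only *HSP90* did in Line4. *HSP90*, a chaperone gene, had an even larger Ct rise than *FIS1A* in Line4, and 9 of its 9 wells in Line4 stress were above 35 cycles. The same was true of 9 of 9 wells of *PEX11.3* in Line4 control and in Misr2 stress, so the ratios to *PEX11.3* rest on late wells in both genotypes. Relative to the other genes that the study classes with peroxisome biogenesis, *FIS1A* changed in Line4 by −1.78 against *PEX11.3* and −2.36 against *PEX11.4*. In Misr2 these changes were −2.90 and −3.93.

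The heat response of these ratios differed between genotypes for most partners. The change of *FIS1A* relative to a partner was less negative, or more positive, in Line4 than in Misr2 for 6 of 7 partners. Of all 28 pairs, 89.3% passed the threshold for this difference. The directions follow from the single-gene differences, where only *CAT*, with 3.83, lay above *FIS1A*, with 3.52. The exception was *CAT*, which did not pass the threshold, with a difference of −0.31 (95% interval −0.65 to 0.03, limma adjusted p = 0.081).

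For *DRP5B*, the ratio to 2 of 7 targets did not pass the threshold in Misr2. Under stress in Misr2 its ratio changed by −0.08 against *PEX11.3* (95% interval −0.30 to 0.15, limma adjusted p = 0.507) and by −0.11 against *SOD*, a superoxide dismutase gene (−0.37 to 0.15, limma adjusted p = 0.423). It rose against *FIS1A* and *HSP90* and fell against *PEX11.4* and *HSP70*. Against *CAT*, with which it shares decimals, it changed by −0.25 (SE 0.115, limma adjusted p = 0.0423). The call was lost without the wells shared in the same group (−0.20, SE 0.141, limma adjusted p = 0.196). That removed all of Misr2 stress replicate 1, so the lost call also reflects fewer replicates. Without the wells shared in any group, which left 1 replicate of Misr2 stress, the change was −0.23. In Line4, *DRP5B* rose against *FIS1A* and *HSP90* and fell against 5 of 7 targets, by values down to −2.49 against *CAT*, or −2.60 without the wells shared in the same group. Its change there was −0.87 against *PEX11.3* and −1.46 against *PEX11.4*, or −0.98 and −1.57 without those wells. For *PEX11.3*, *PEX11.4*, *SOD*, *HSP70* and *HSP90*, leaving out either set of wells changed no direction and no call under stress in either genotype.

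**Figure D4:**
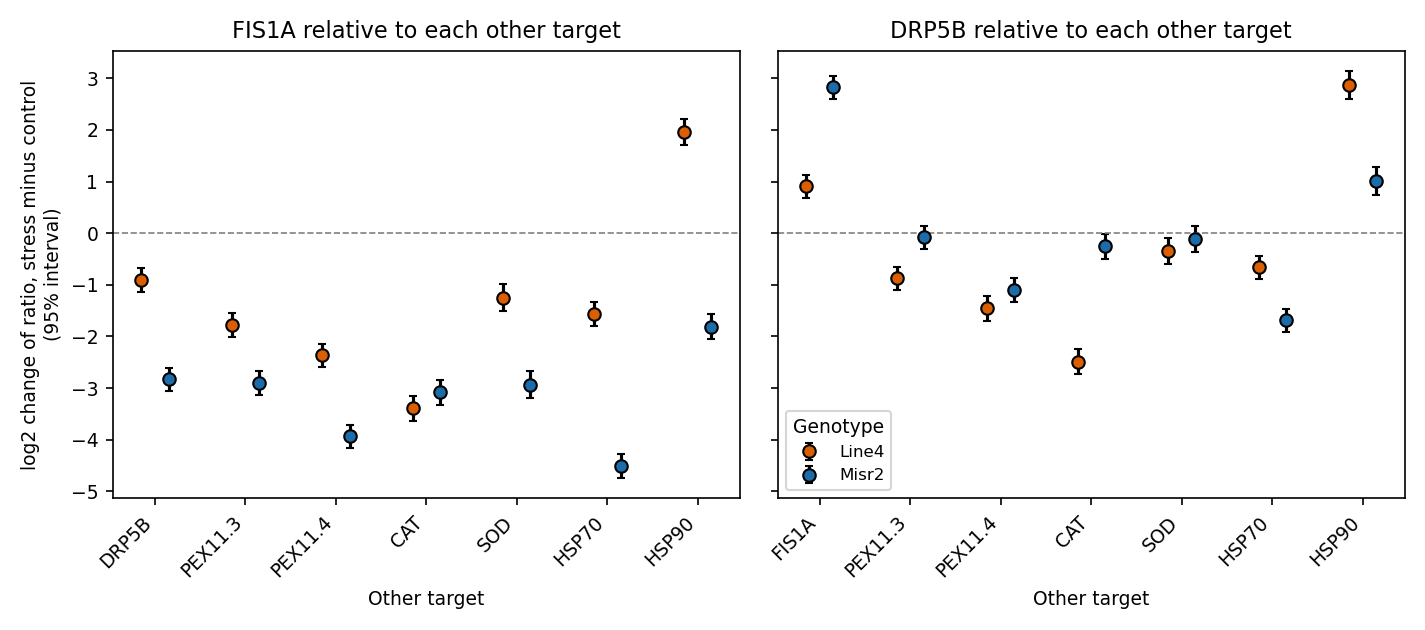
Log2 change, stress minus control, of the ratio of *FIS1A* (left) and *DRP5B* (right) with 95% intervals (vertical axis) to each of the 7 other targets (horizontal axis), in Line4 (orange) and Misr2 (blue). *FIS1A* lies below 0 against every target except *HSP90* in Line4, and *DRP5B* lies near 0 against *PEX11.3* and *SOD* in Misr2.

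By the shape of their 4 group means, each centred on its own mean, the target most like *DRP5B* was *SOD*, with a root mean square difference of 0.19 log2 units over 4 groups. The target most like *FIS1A* was *HSP90*, at 0.94, followed by *DRP5B* at 1.07. No other target came as close to *FIS1A* as *SOD* and *PEX11.3*, at 0.35, came to *DRP5B*. These are descriptions over 4 groups, and within a group the targets share their cDNA.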

How the data were processed

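The authors deposited a Ct value for every well of the 8 targets, with no reference gene and no averaging of wells, from SYBR Green PCR of 40 cycles on cDNA made from 50 ng of total RNA. Threshold and baseline settings are not given in the sources used here. A second deposited table holds the authors' fold changes of stress over control relative to *Actin-7*, and it was not used, nor were the ΔCt values of the supplement.

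Groups came from the sample titles. Sets of 3 successive wells were averaged as a replicate, a grouping by position that the labels do not state. In R 4.3.3, limma 3.58.1 modelled minus Ct by a mean per group over the 4 groups, which share their spread, moderated over the 8 genes or over the 28 gene pairs, and with Benjamini-Hochberg adjustment over the 8 or 28. This is the genotype by treatment layout of the study's methods, and Tukey's test was not run. Means of 3 against 3 replicates were also compared by exact permutation in Python 3.11.15. For *FIS1A*, *DRP5B* and their ratio, the two-sided exact permutation test gave p = 0.1 in every comparison of 2 groups. That includes the genotype comparisons, and it is the smallest p this test can give. The depth of a Ct has no count behind it, so the number of wells limits the precision.

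The genes named are *FIS1A* and *DRP5B*, the PEX11 genes, the most similar target of each member, and targets at the ends of a printed range or rank. The members and lists were chosen with earlier results of these data known. The transcripts of 8 of 8 targets matched the RefSeq table for IWGSC CS RefSeq v2.1, which was used for names only. Alternatives changed the scaling, the replicates, the wells kept, the variance, the samples fitted and the PCR efficiency. The comparison of decimals with *CAT* wells of any group, and the ratios of *DRP5B* to other targets without wells of shared decimals, were added after the data had been seen.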

Additional observations from a re-analysis of the deposited data

Results flagged for a closer look

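The heat response differed between genotypes for both genes and for their ratio, by the test of the difference itself on raw Ct. For *FIS1A*, the response in Line4 minus that in Misr2 was 3.52 log2 units, and it was 1.80 relative to the mean and 0.80 relative to the median of the 6 other targets. For *DRP5B* it was 1.60 log2 units on raw Ct, and its sign changed relative to the other targets. For the ratio of *FIS1A* to *DRP5B*, which needs no reference gene, it was 1.92 log2 units.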

How the results depend on the processing

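Of 330 values of 15 comparisons under alternatives, 323 kept the direction and the side of the threshold. Some of these alternatives could not move the change itself. Leaving out a replicate of a group outside the comparison altered only the spread, and no well of either gene was above 35 cycles. Leaving out *DRP5B* wells left the *FIS1A* changes as they were. For the difference between heat responses, fitting only its own groups repeated the main fit. The count therefore overstates how far the changes were tried. With single replicates left out this held for 178 of 180 values, and the exceptions were the *FIS1A* difference between Line4 and Misr2 under stress, which ranged from 0.13 to 0.22. That difference was 0.13 relative to the mean of the 6 other targets (limma adjusted p = 0.139) and 0.18 with only the stressed groups fitted (limma adjusted p = 0.0791), both without a call. The *DRP5B* difference between Line4 and Misr2 in control was 0.75 relative to the median of the 6 other targets, the opposite of raw Ct. The *DRP5B* difference between heat responses was −0.12 relative to their mean and −1.13 relative to their median, again opposite to raw Ct. For *FIS1A* that difference kept its direction and call, at 3.52 on raw Ct, 1.80 relative to the mean and 0.80 relative to the median. Scaling also moved the split of calls over the 8 targets. Under stress in Line4, 3 were higher and 3 lower on raw Ct and relative to the mean, and 1 higher and 6 lower relative to the median. Under stress in Misr2, 0 were higher and 8 lower on raw Ct, and 2 higher and 5 lower relative to the mean as well as to the median. For the difference between heat responses, 7 were higher and 0 lower on raw Ct, 3 and 2 relative to the mean, and 2 and 6 relative to the median. In control plants, Line4 was higher for 1 and lower for 6 on raw Ct, 3 and 4 relative to the mean, and 6 and 2 relative to the median. No analysis that pairs replicates between groups was possible because the labels give the replicates no numbers. Within a group, the ratios and the scalings pair wells of different genes by position, which the labels do not state either.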

Other observations

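Among the other targets, 3 wells of replicate 3 for *HSP90* in Line4 stress held the same Ct of 35.056232. Outside the *DRP5B* and *CAT* pairs, 3 pairs of wells of different genes shared their last 4 decimals within a group, and none of them included *FIS1A* or *DRP5B*.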
